A study of Mus musculus with 12 samples.

Results

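The interaction of glucose level and CD200Fc was examined gene by gene in BV2 cells, an immortalised line of mouse microglia. For each gene it is the change with CD200Fc in high glucose minus the change with CD200Fc in normal glucose, on the log2 scale, where 1 unit is a 2-fold difference. A negative interaction means that the change with CD200Fc lay further down in high glucose than in normal glucose, and a positive one that it lay further up. The contrast used all 12 of the 12 libraries of the series, and its members are genes, 1 row per gene ID, of which 19182 of 55487 were expressed highly enough to be tested.

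The 4 groups had 3 libraries each: normal glucose (NG), normal glucose with CD200Fc at 50 ng/mL (NG+CD200Fc), high glucose (HG), and high glucose with CD200Fc at the same dose (HG+CD200Fc). All groups were the same cell line, and the labels name no control Fc protein and no osmotic control. The sources used here give neither glucose concentrations nor exposure times. The labels name BV2 as source, cell line and microglia as cell type, while their treatment text describes dissected retinas and sorted GFP-positive cells. The source label was followed. Whether replicate libraries stem from different cultures is not said. Their p-values therefore rest on a spread that may be technical.

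CD200 is a membrane glycoprotein carried by neurons, endothelium and other cells, and its receptor CD200R1 sits on microglia, macrophages and other myeloid cells. Engagement of CD200R1 recruits Dok adaptors and the Ras GTPase-activating protein RasGAP, and is known for restraining myeloid activation. CD200Fc joins the extracellular part of CD200 to an antibody Fc tail and is used as a soluble ligand of that receptor.

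Library totals ran from 2.15e+07 to 3.19e+07 counts. All 10 microglia and macrophage markers were tested and expressed, with a summed level of 5680 to 8720 CPM (counts per 1e+06 counts of the library). Summed neuron markers reached 2.35 CPM, fibroblast markers 1.78 CPM, lymphocyte markers 4.37 CPM and pigment epithelium markers 10.4 CPM. Endothelial and mural markers summed to 382 to 511 CPM, and their values are given with the vascular genes. Muller glia and astrocyte markers summed to 149 to 175 CPM, with 45973 counts over all libraries from the glutamine synthetase gene Glul. Of the 8 markers 5 were tested: Glul, Apoe, Gfap, Aldh1l1 and Rlbp1. None of the 5 passed the interaction test, while 2 were higher and 1 lower in HG than in NG. The others, Slc1a3, Sox9 and Aqp4, had 34, 2 and 1 counts over all libraries. The photoreceptor gene Crx, the pigment epithelium genes Tyr and Ttr, the lymphocyte gene Ncr1 and the fibroblast genes Dcn and Lum had 0 counts in every library. Photoreceptor markers summed to 29.3 to 41.5 CPM, and 9883 counts over all libraries came from Pde6b. The library HG replicate 2 stood apart in ribosomal RNA, which was 1.49% of its counts against at most 0.119% elsewhere. Without it 1203 genes passed the interaction test, 1097 of them shared with the 1381 of the full set.

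The change with CD200Fc differed between the glucose levels for immune, metabolic and growth genes. The interaction passed the test (edgeR quasi-likelihood, Benjamini-Hochberg adjusted p under 0.05) for 1381 genes, 7.2% of those tested. It was positive for 694 (3.62%) and negative for 687 (3.58%). Of the genes that passed 94.2% were protein-coding, with a median mean of 65.9 CPM, against 66.8% and 7.86 CPM for all tested genes. The shares over all tested genes therefore lie below those of protein-coding genes. How far the gene lists exceed the share of coding genes of like level was not tested. Differences of at least 2-fold were mostly negative, 155 against 23 positive. The most certain were Marco, a scavenger receptor of macrophages, Mpeg1, the pore-forming perforin-2 of phagocytes, Irf7, the transcription factor that amplifies type I interferon production, and Slfn4, an interferon-inducible Schlafen gene.

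The responses behind this contrast were unequal in size. In normal glucose no gene passed with CD200Fc (edgeR, 0% of those tested): the smallest adjusted p was 0.816, and 1147 genes had an unadjusted p under 0.05. DESeq2 also called 0 and limma voom called 1. In high glucose 3408 genes passed with CD200Fc (17.8%), 1815 upward (9.46%) and 1593 downward (8.3%). Over the 687 genes of negative interaction, the median log2 difference with CD200Fc was 0.05 in normal glucose and -0.55 in high glucose. For the 694 genes of positive interaction these medians were -0.02 and 0.37. Both sets were selected by the difference between these responses, so a gap between their medians is no separate evidence. Over all 19182 tested genes the SD of the log2 difference with CD200Fc was 0.36 in normal glucose and 0.44 in high glucose. Between the glucose levels without CD200Fc, 4720 genes passed (24.6%), and with CD200Fc 1593 (8.3%). The last count rests on single libraries: it was 277 without HG+CD200Fc replicate 2, 344 without NG+CD200Fc replicate 3, 646 without HG+CD200Fc replicate 3 and 665 without NG+CD200Fc replicate 1.

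**Figure D1:**
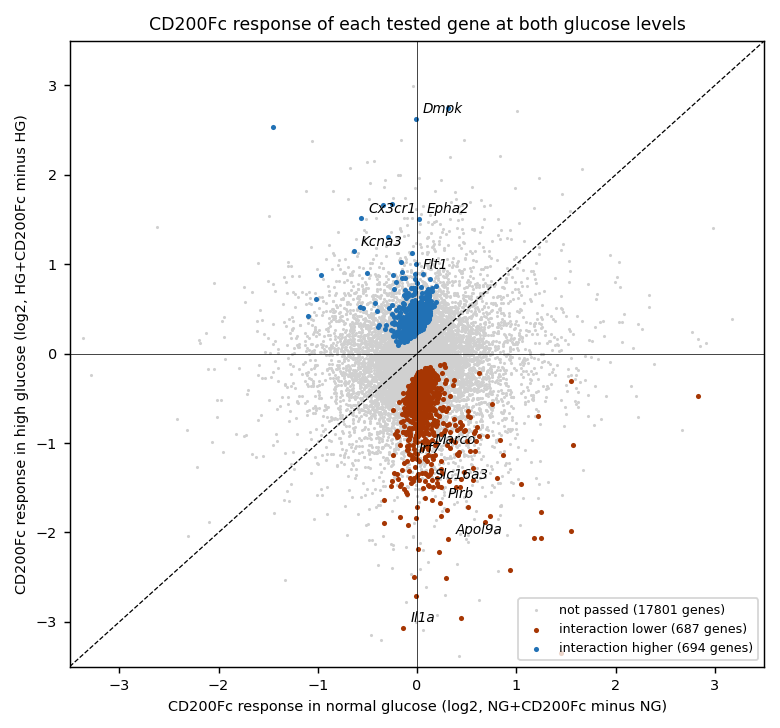
Change with CD200Fc in normal glucose (x axis, log2) and in high glucose (y axis, log2) for each tested gene. Brown points are the 687 genes of negative interaction and blue points the 694 of positive interaction, and the dashed line marks equal change. The coloured points spread along the vertical axis and stay close to 0 on the horizontal one, and 10 genes lie outside the axes.

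Among the 1381 genes the 3 high-glucose libraries without CD200Fc lay all above or all below the other 9 libraries for 1105. Over all tested genes this was so for 14.5%. The HG+CD200Fc libraries were set apart in this way for 315 of the 1381, against 7.55% of all tested genes. The same libraries enter the test, so these shares describe its calls and are no separate evidence. Medians of the glucose difference for the negative genes were 0.59 without CD200Fc and -0.07 with it. For the positive genes they were -0.30 and 0.08. These contrasts share libraries with the interaction and are set side by side only.

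**Figure D2:**
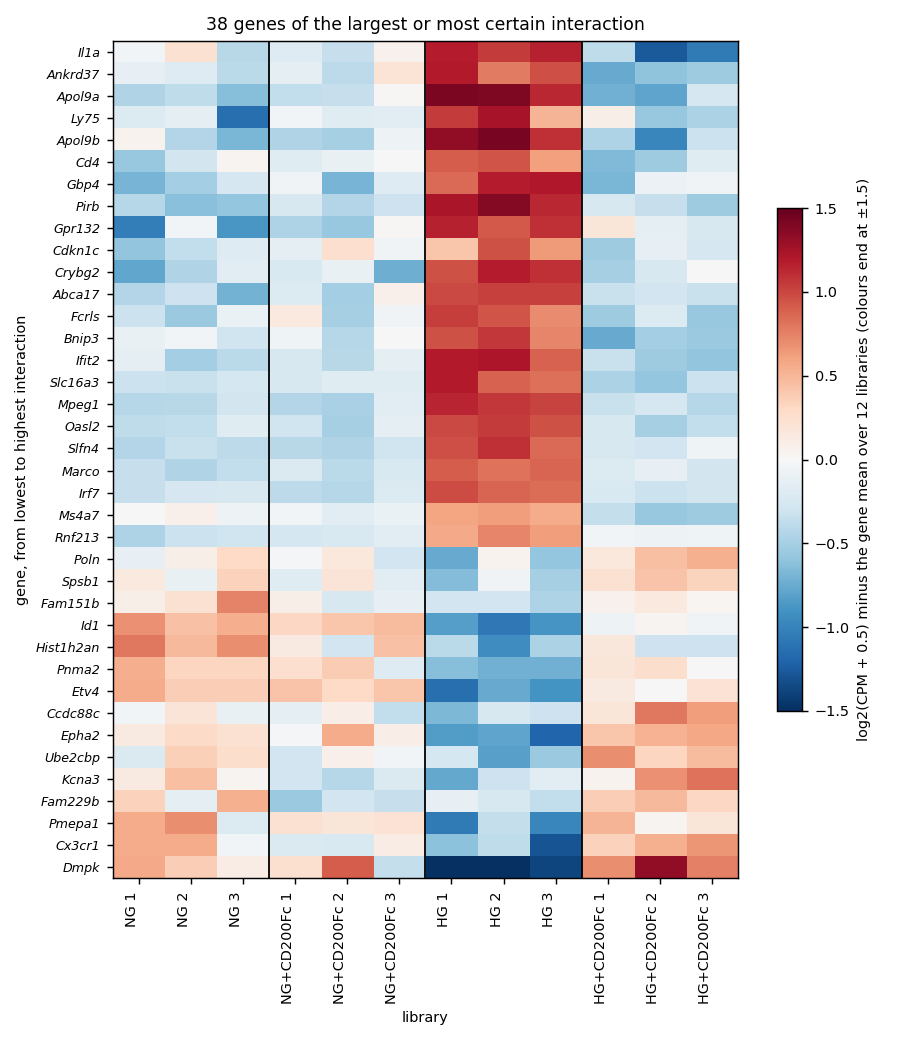
Level of 38 genes in each of the 12 libraries, as log2(CPM + 0.5) minus the mean of the gene, ordered from the lowest to the highest interaction. Rows are the 15 genes with the lowest and the 15 with the highest interaction among those that passed, plus the genes with the 10 smallest p-values. The 3 HG columns carry the strongest colours, red at the top and blue at the bottom, and the 3 columns beside them with CD200Fc are close to the NG columns for most rows.

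The receptor itself was among the genes that did not pass. Cd200r1 (ENSMUSG00000022667, chromosome 16, 44765736 to 44794978, plus strand, GRCm38) stood at 12.7, 13.7 and 14.9 CPM in NG and at 11.2, 15.1 and 16.9 in NG+CD200Fc. It stood at 14.2, 12.5 and 12.4 CPM in HG and at 12.7, 10.5 and 12.5 in HG+CD200Fc. The 4 groups overlapped, and the interaction was -0.20 ± 0.18 (log2 ± SE, adjusted p = 0.62). Of 18 tested genes of CD200 receptor signalling 1 passed, against 7.2% of all tested genes. This was Hras, a Ras GTPase downstream of many growth factor receptors, with an interaction of 0.37 ± 0.09 (adjusted p = 0.013). Its level was 76.0 to 95.9 CPM in HG and 103 to 118 CPM in the other groups, which did not overlap with HG. For the adaptors Dok1 and Dok2, for Rasa1, which encodes RasGAP, and for the phosphatase gene Ptpn6 the interactions were -0.09, 0.17, 0.22 and -0.11, and none passed.

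Genes induced by the ERK kinases that feed back on them had mostly positive calls. Of 20 tested ERK feedback genes 8 had a positive interaction and 1 a negative one, with a median of 0.26 (all tested genes: 3.62% positive, 3.58% negative, median -0.01). Leaving out NG replicate 1, NG replicate 2, NG+CD200Fc replicate 3 or HG+CD200Fc replicate 2 lowered the 8 to 5. Epha2, an ephrin receptor tyrosine kinase induced through ERK, stood at 12.1, 13.4 and 12.9 CPM in NG and 10.8, 16.4 and 11.8 in NG+CD200Fc. It was 5.92, 6.10 and 4.53 CPM in HG and 14.8, 15.9 and 16.6 in HG+CD200Fc, so that only HG was set apart from the other 3 groups. Its interaction was 1.49 ± 0.20 (adjusted p = 1.49e-05). The ETS transcription factor gene Etv4 (1.18 ± 0.19) and the cyclin D1 gene Ccnd1 (0.55 ± 0.09) showed the same order, with HG lowest. Ier3, an immediate early gene, had the negative interaction, -0.82 ± 0.14, and was highest in HG at 37.4 to 47.3 CPM against 23.1 to 29.7 CPM elsewhere.

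Other inhibitory receptors of myeloid cells mostly recruit phosphatases to their tails. Of 18 tested 7 had a negative interaction, none a positive one and 11 did not pass, with a median of -0.29. Pirb (ENSMUSG00000058818, chromosome 7, 3711409 to 3720391, minus strand), an inhibitory receptor for MHC class I, showed 7.16, 6.18 and 6.42 CPM in NG and 8.25, 7.10 and 7.83 in NG+CD200Fc. In HG it reached 23.6, 26.3 and 22 CPM, and with CD200Fc it stood at 8.22, 7.63 and 6.60. HG lay above all other libraries, and the interaction was -1.91 ± 0.17 (adjusted p = 5.98e-08). Cd300lf, a lipid-binding inhibitory receptor, had -0.97 ± 0.10, and the leukocyte immunoglobulin-like receptors Lilrb4a and Lilr4b -0.91 ± 0.10 and -0.74 ± 0.08. These last are near-identical neighbours, so that reads may be split between them. Pirb belongs to a paired receptor family with the same limit.

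Fc receptor genes were treated as a group of their own, since the ligand carried an Fc tail. Of 15 tested Fc gamma receptor and Syk pathway genes 7 had a negative interaction and none a positive one (median -0.20). The shares over all tested genes were 3.58% and 3.62%. The inhibitory receptor Fcgr2b was at 32.6 to 34.5 CPM in HG, 16.7 to 19.4 in HG+CD200Fc and 20.6 to 25.0 in both NG groups (-0.88 ± 0.13). The activating receptor Fcgr4 (-0.76 ± 0.10) and the neonatal receptor Fcgrt (-0.57 ± 0.12) also had their highest levels in HG. In normal glucose none of the 15 passed with CD200Fc, as none of all 19182 tested genes did. Effects of the Fc tail and of the CD200 part cannot be told apart in this design.

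Interferon-stimulated genes made up the list with the most calls. Of 68 tested 48 had a negative interaction and none a positive one, with a median of -0.78. With CD200Fc 56 of the 68 were lower in high glucose, against 8.3% of all tested genes. None of the 68 passed with it in normal glucose, where no tested gene did. Without CD200Fc 60 were higher in HG than in NG, and with it 1 was. Over all 19182 tested genes these counts were 2244 and 892. The number of negative interactions on the list ran from 44 to 52 over the 21 alternative settings.

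Irf7 (ENSMUSG00000025498, chromosome 7, 141262706 to 141266481, minus strand) was at 70.0, 74.6 and 75.8 CPM in NG, 68.1, 66.5 and 77.4 in NG+CD200Fc, 177, 163 and 159 in HG, and 76.1, 71.6 and 73.7 in HG+CD200Fc. HG lay apart and the other 3 groups overlapped, with an interaction of -1.12 ± 0.09 (adjusted p = 8.44e-09). Oasl2, an interferon-induced relative of the oligoadenylate synthetases, was at 208 to 222 CPM in HG and 75.5 to 96.3 CPM in all other libraries (-1.37 ± 0.11, adjusted p = 3.28e-08). The tetratricopeptide genes Ifit2 and Ifit3, which bind viral RNA or restrain viral replication, fell from 32.9 to 41.2 CPM and from 24.2 to 31.9 CPM in HG to 11.5 to 13.8 and 10.6 to 10.9 CPM with CD200Fc. Their interactions were -1.70 ± 0.16 and -1.65 ± 0.17. Ifit3 has a close copy, Ifit3b, and its counts are uncertain to that extent. The apolipoprotein L genes Apol9a and Apol9b had the lowest values of the list, -2.39 ± 0.28 and -2.20 ± 0.38, on levels of at most 11.8 and 6.74 CPM, and are also near-identical. Slfn4 was at 192 to 229 CPM in HG and 77.8 to 102 CPM elsewhere (-1.18 ± 0.10), and Rnf213, a large interferon-inducible ubiquitin ligase, at 1221 to 1369 and 599 to 802 CPM (-0.84 ± 0.08). Slfn4 and Rnf213 were not on the list and were picked for their p-values.

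**Figure D3:**
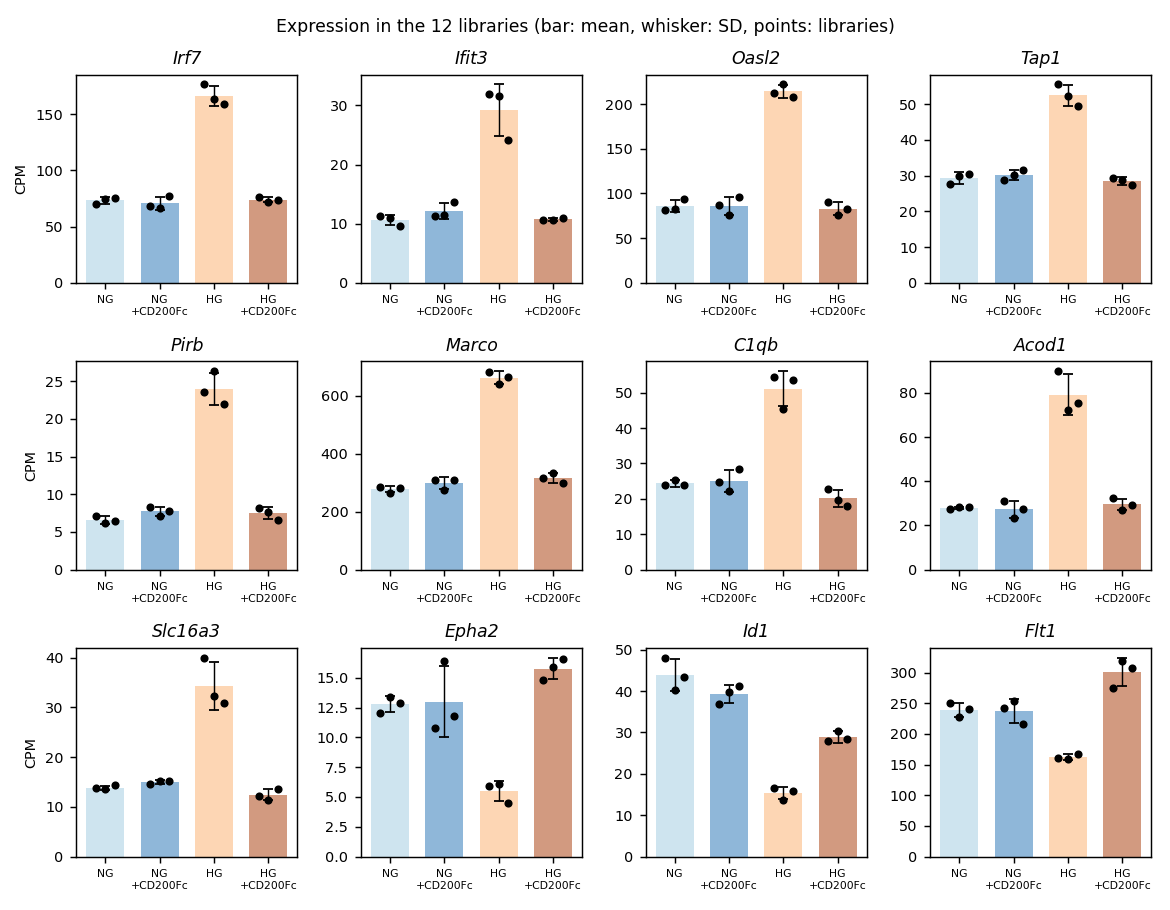
CPM of 12 genes in each of the 12 libraries. Bars are group means, whiskers are SD over 3 libraries and points are libraries. For Irf7, Ifit3, Oasl2, Tap1, Pirb, Marco, C1qb, Acod1 and Slc16a3 the 3 HG points stand above all others, and for Epha2, Id1 and Flt1 below all others.

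The upstream sequences of interferon-list genes were searched for the pattern GAAANNGAAA, the core of the element bound by interferon regulatory factors and the ISGF3 complex, on both strands and counting overlapping matches. RefSeq promoters (GRCm38.p6) were matched by symbol for 11070 of the tested genes. The 250 bases before the start held the pattern for 26 of 52 tested interferon-list genes (50%) and for 19 of the 36 that passed (52.8%). Over all 32851 listed starts the share was 2.98%, and over the tested genes 3.29%. It was 11% for 526 genes of negative interaction, which include the interferon genes, and 2.2% for 546 of positive interaction. The 200 bases before the start are printed for the 4 interferon-list genes with the smallest interaction p that hold a match there, and for Oasl2, the gene of smallest p that holds none. Stretches that overlap the GENCODE model of the same gene were passed over. The set shows how the matches vary in number, strand and distance. Capitals mark the pattern or its reverse complement.
Ifit3: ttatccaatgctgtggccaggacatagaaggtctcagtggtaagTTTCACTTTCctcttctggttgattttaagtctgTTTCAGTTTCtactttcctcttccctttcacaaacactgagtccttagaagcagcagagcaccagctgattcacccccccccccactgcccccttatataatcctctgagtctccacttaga
Trim30a: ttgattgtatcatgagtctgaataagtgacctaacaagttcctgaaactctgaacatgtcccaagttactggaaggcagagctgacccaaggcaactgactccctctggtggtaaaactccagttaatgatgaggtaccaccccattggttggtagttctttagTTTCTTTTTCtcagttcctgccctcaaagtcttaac
Rsad2: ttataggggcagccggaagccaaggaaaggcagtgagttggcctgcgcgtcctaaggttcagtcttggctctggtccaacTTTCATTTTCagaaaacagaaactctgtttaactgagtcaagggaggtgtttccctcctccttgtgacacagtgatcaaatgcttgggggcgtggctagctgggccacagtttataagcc
Oas1g: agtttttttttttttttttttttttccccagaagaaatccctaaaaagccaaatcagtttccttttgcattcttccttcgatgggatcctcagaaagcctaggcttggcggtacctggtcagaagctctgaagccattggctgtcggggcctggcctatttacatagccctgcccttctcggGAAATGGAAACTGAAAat
Oasl2: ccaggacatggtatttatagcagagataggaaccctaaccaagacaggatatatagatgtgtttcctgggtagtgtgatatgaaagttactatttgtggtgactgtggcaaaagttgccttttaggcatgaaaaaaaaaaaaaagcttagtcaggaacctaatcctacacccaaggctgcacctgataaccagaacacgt

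These stretches lie at chr19:34583329-34583528 (plus strand, Ifit3), chr7:104465194-104465393 (minus strand, Trim30a), chr12:26456453-26456652 (minus strand, Rsad2), chr5:120887614-120887813 (minus strand, Oas1g) and chr5:114896734-114896933 (plus strand, Oasl2). Ifit3 holds 2 matches, at -156 and -122 from its start. Oas1g also holds 2, at -18 and -12, which overlap and form 1 longer run. Trim30a holds 1 match at -36 and Rsad2 1 at -120. Trim30a, a tripartite motif protein, was at 100.3 to 119 CPM in HG and 50.8 to 69.2 CPM elsewhere (-0.95 ± 0.11). Rsad2, the antiviral enzyme viperin, was at 49.0 to 54.9 CPM in HG and 26.2 to 32.2 CPM elsewhere (-0.92 ± 0.11). Oas1g, an oligoadenylate synthetase with close copies, was at 84.6 to 89.5 CPM in HG and 47.0 to 58.3 CPM elsewhere (-0.60 ± 0.10). In all 3, HG lay above every other library, as it did in Oasl2, whose stretch holds no match. Trim30a, Rsad2 and Oas1g were chosen by their sequence match after the values were known.

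Antigen presentation and complement followed, with calls in 1 direction. Of 27 tested antigen presentation genes 14 had a negative interaction and none a positive one (median -0.49). Tap1, which carries peptides into the endoplasmic reticulum, was at 27.5, 29.9 and 30.5 CPM in NG, 28.6, 30.1 and 31.4 in NG+CD200Fc, 55.5, 52.3 and 49.5 in HG, and 29.4, 28.6 and 27.4 in HG+CD200Fc (-0.92 ± 0.11, adjusted p = 1.85e-06). The class I heavy chain H2-K1 (-0.60 ± 0.08) and the non-classical H2-T23 (-1.44 ± 0.27) also had a single high group, HG. Reads of these class I genes may be shared between close copies. B2m, the light chain of class I, was 509 to 568 CPM in HG and 407 to 453 CPM in the NG groups, but 321 to 374 CPM in HG+CD200Fc, so that with CD200Fc high glucose had the lower level. Its interaction was -0.66 ± 0.08, and the glucose difference was 0.33 ± 0.06 without CD200Fc and -0.33 ± 0.06 with it (adjusted p = 0.00231). The invariant chain Cd74 differed: 17.7 to 20.1 CPM in the NG groups, 50.1 to 57.2 CPM in HG, and 28.6 to 31.8 CPM in HG+CD200Fc. No group of Cd74 in high glucose overlapped with normal glucose. Its interaction was -0.84 ± 0.12, and the glucose difference was 1.52 ± 0.08 without and 0.68 ± 0.08 with CD200Fc (adjusted p = 0.000197).

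Of 20 tested complement genes 10 had a negative interaction and none a positive one (median -0.52), and without NG replicate 3 the count was 6. C1qb, a chain of the complement-starting protein C1q, was at 23.8, 25.4 and 23.9 CPM in NG, 24.7, 22.3 and 28.4 in NG+CD200Fc, 54.4, 45.4 and 53.4 in HG, and 22.8, 19.7 and 18.1 in HG+CD200Fc. The HG libraries stood above all others, with an interaction of -1.38 ± 0.14 (adjusted p = 2.03e-07). C3, the central component, was at 411 to 420 CPM in HG, 264 to 277 in HG+CD200Fc and 204 to 228 in the NG groups, where no group in high glucose overlapped with normal glucose (-0.64 ± 0.07). Cfp, or properdin, which stabilises the alternative pathway convertase, was at 99.8 to 104 CPM in HG+CD200Fc, below the 121 to 143 CPM of the NG groups and the 167 to 189 CPM of HG (-0.77 ± 0.09).

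Inflammatory cytokines had calls in 1 direction only, while most tested members did not pass. Of 24 tested cytokine and chemokine genes 6 had a negative interaction and none a positive one (median -0.27). The count was 3 without NG replicate 3, NG+CD200Fc replicate 1, HG+CD200Fc replicate 2 or HG+CD200Fc replicate 3. Il1a, an alarmin cytokine, had the lowest interaction of the passing genes whose mean reached 1 CPM, -2.93 ± 0.60 (adjusted p = 0.00225). It stood at 0.890, 1.17 and 0.569 CPM in NG, 0.753, 0.628 and 0.994 in NG+CD200Fc, 2.74, 2.46 and 2.68 in HG, and 0.598, 0.0966 and 0.183 in HG+CD200Fc. Cxcl2, a neutrophil chemokine, was at 26.9 to 37.0 CPM in HG and 18.7 to 23.3 CPM elsewhere (-0.78 ± 0.14). The monocyte chemokine Ccl7 did not pass between HG and NG (0.20 ± 0.11, adjusted p = 0.205), and was lowest in HG+CD200Fc at 9.21 to 10.8 CPM against 12.8 to 18.5 CPM elsewhere (-0.80 ± 0.17). Tnf, Il1b and Il6, named for their standing as microglial cytokines, did not pass, with interactions of 0.07 ± 0.09, -0.21 ± 0.39 and 0.08 ± 1.00. Mean levels of Tnf were 153, 145, 137 and 136 CPM in NG, NG+CD200Fc, HG and HG+CD200Fc, while Il1b stayed at or under 2.64 CPM and Il6 at or under 0.431 CPM.

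Among 27 tested genes of inflammatory enzymes and the inflammasome 8 had a negative interaction, 1, Hmox1, a positive one, and 18 did not pass (median -0.20). Acod1, which makes itaconate, was at 27.6, 28.2 and 28.5 CPM in NG, 30.9, 23.3 and 27.6 in NG+CD200Fc, 89.8, 72.2 and 75.6 in HG, and 32.4, 27.1 and 29.1 in HG+CD200Fc (-1.38 ± 0.13, adjusted p = 2.03e-07). Lcn2, the iron-siderophore binder lipocalin-2, was at 30.1 to 37.6 CPM in HG and 11.3 to 16.4 CPM elsewhere (-1.16 ± 0.16). For Acod1 and Lcn2 the other 3 groups overlapped. Mmp9, a gelatinase, was at 19.5 to 21.5 CPM in the NG groups, 55.5 to 63.0 in HG and 25.2 to 28.4 in HG+CD200Fc, so that a glucose difference of 0.42 ± 0.08 remained with CD200Fc (interaction -1.14 ± 0.11). Nos2, the inducible nitric oxide synthase, had means of 68.3 ± 7.57, 63.6 ± 7.88, 206 ± 27.4 and 101 ± 1.53 CPM (SD, n = 3) in NG, NG+CD200Fc, HG and HG+CD200Fc, with an interaction of -0.93 ± 0.14. Of 28 tested NF-kB genes 5 were negative and 1 positive (all tested genes: 3.58% and 3.62%). Among the negative ones were the kinase gene Ikbke (-0.58 ± 0.09) and the inhibitor gene Irak3 (-0.56 ± 0.08).

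Macrophage scavenger and surface genes included the most certain interaction. Marco (ENSMUSG00000026390, chromosome 1, 120474538 to 120505024, minus strand) was at 286, 266 and 280 CPM in NG, 311, 274 and 310 in NG+CD200Fc, 683, 639 and 665 in HG, and 314, 332 and 300 in HG+CD200Fc (-1.18 ± 0.08, adjusted p = 5.34e-10). Mpeg1 was at 125 to 137 CPM in HG and 44.2 to 55.0 CPM elsewhere (-1.43 ± 0.10, adjusted p = 1.59e-09). In both genes HG lay apart while the other groups were close to each other. Ms4a7, a tetraspanin-like macrophage gene, was at 110 to 116 CPM in HG, 67.3 to 79.0 in the NG groups and 50.5 to 58.5 in HG+CD200Fc (-0.98 ± 0.09). The mannose receptor gene Mrc1 had -0.68 ± 0.10, and the scavenger receptor gene Msr1 moved the other way, with 0.39 ± 0.09 and its lowest level in HG, 149 to 165 CPM. Mpeg1 and Ms4a7 were picked for their p-values.

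Of the 10 microglia and macrophage markers 6 had a negative interaction and none a positive one (median -0.33). Adgre1, which encodes F4/80, was at 709 to 768 CPM in HG and 357 to 433 CPM elsewhere (-0.81 ± 0.08). Csf1r, Cd68, Spi1 and Tyrobp did not pass, with interactions of 0.10, -0.04, 0.10 and 0.06. The summed level of the 10 markers was 6477 to 6728 CPM in NG, 5803 to 6377 in NG+CD200Fc, 7281 to 8720 in HG and 5680 to 6053 in HG+CD200Fc. In bulk RNA, fewer cells of a kind and less RNA per cell cannot be told apart. Nuclear noncoding and structural RNAs, listed as signs of RNA quality, had the same high group. Their summed level was 11235 to 14278 CPM in HG, 9484 to 10845 in NG, 8156 to 9201 in NG+CD200Fc and 8763 to 9626 in HG+CD200Fc. Of 10 tested 1 passed, the nuclear RNA Malat1, at 7760 to 9134 CPM in HG and 4393 to 5708 CPM elsewhere, while Rmrp was at 0. The part of either shift in the immune results was not tested.

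Homeostatic microglial genes moved both ways. Of 21 tested 4 had a positive and 4 a negative interaction, and 2 were positive without NG replicate 1, NG+CD200Fc replicate 1 or HG+CD200Fc replicate 2. Cx3cr1, the fractalkine receptor, had an interaction of 2.08 ± 0.38 (adjusted p = 0.000774) on levels of 3.86, 3.87 and 2.40 CPM in NG, 2.06, 2.04 and 2.70 in NG+CD200Fc, 1.44, 1.78 and 0.709 in HG, and 3.29, 3.82 and 4.22 in HG+CD200Fc. Its HG libraries were the lowest, and those of NG and HG+CD200Fc overlapped. The nucleotide receptor P2ry6 had 0.66 ± 0.10 and its lowest level in HG, 280 to 309 CPM against 386 to 528 elsewhere. Fcrls, a microglial scavenger-like receptor, had -1.73 ± 0.30, and Aif1, which encodes the marker Iba1, -0.69 ± 0.10. Tmem119 (-0.23 ± 0.16) and P2ry12 (0.45 ± 0.48) did not pass. Of 26 disease-associated microglial genes 4 were positive and 3 negative (all tested genes: 3.62% and 3.58%). Lpl, lipoprotein lipase, was positive (0.37 ± 0.08) and Cd52 negative (-1.22 ± 0.19), while Apoe did not pass (0.23 ± 0.21).

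Of 12 tested targets of glucose sensing 4 had a negative interaction and none a positive one (median -0.26). Txnip, the thioredoxin-interacting protein that is induced by glucose, was at 111, 96.8 and 97.9 CPM in NG, 95.7, 95.9 and 103 in NG+CD200Fc, 193, 179 and 177 in HG, and 128, 125 and 116 in HG+CD200Fc. Both high-glucose groups lay above both normal-glucose groups. Its interaction was -0.52 ± 0.09 (adjusted p = 0.00029), and the glucose difference was 0.84 ± 0.06 without and 0.33 ± 0.06 with CD200Fc (adjusted p = 0.00269). Its relative Arrdc4 had -0.74 ± 0.16 and the transporter gene Slc2a6 -0.57 ± 0.09.

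Glycolysis turns glucose to pyruvate and lactate, and HIF1 induces many of its enzymes. Of 27 tested glycolysis and lactate genes 8 had a negative and 1 a positive interaction (median -0.20). The 8 became 4 without NG replicate 1, NG replicate 3, HG replicate 1, HG replicate 3 or HG+CD200Fc replicate 3, and 5 without NG+CD200Fc replicate 1 or 3. Slc16a3, the lactate exporter MCT4, was at 13.7, 13.6 and 14.3 CPM in NG, 14.5, 15.1 and 15.2 in NG+CD200Fc, 39.9, 32.3 and 30.9 in HG, and 12.3, 11.4 and 13.7 in HG+CD200Fc (-1.57 ± 0.15, adjusted p = 8.96e-08). Eno2, an enolase, was at 124 to 135 CPM in HG and 52.5 to 73.3 CPM elsewhere (-1.01 ± 0.10). Of 24 tested genes of hypoxia and HIF1 6 were negative and none positive (median -0.23). Among them were Ankrd37 (-2.43 ± 0.44), the mitophagy genes Bnip3 (-1.71 ± 0.27) and Bnip3l (-0.61 ± 0.11), Ndrg1 (-1.46 ± 0.15) and Vegfa, the vascular growth factor (-0.39 ± 0.09). Ndrg1 was at 30.5 to 30.9 CPM in HG and 11.1 to 15.2 CPM elsewhere. None of 30 citrate cycle genes and none of 74 nuclear genes of oxidative phosphorylation passed (edgeR, medians 0.01 and 0.03).

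Lipid genes had few calls, in both directions. Of 14 tested genes of cholesterol efflux and LXR targets 2 were negative, the phospholipid transfer protein Pltp (-0.96 ± 0.10) and the cholesterol exporter Abca1 (-0.64 ± 0.08). Pltp was at 92.6 to 96.3 CPM in HG and 43.6 to 53.1 CPM elsewhere. Of 39 tested genes of cholesterol and fatty acid synthesis 2 were positive and 3 negative, with a median of -0.07. Calls made up 14.3% of the efflux list and 12.8% of the synthesis list, against 7.2% of all tested genes. That 7.2% includes noncoding genes and genes of low level. Fasn, fatty acid synthase, had 0.45 ± 0.08, with 1071 to 1148 CPM in HG, 1249 to 1502 in the NG groups and 1529 to 1748 in HG+CD200Fc. The desaturases Scd1 (-0.77 ± 0.17) and Scd2 (-0.43 ± 0.08) and the lipid droplet coat gene Plin2 (-0.51 ± 0.08) were highest in HG.

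Ribosome biogenesis, which MYC drives, supplies growing cells. Of 36 tested genes of ribosome biogenesis and MYC targets 22 had a positive interaction and none a negative one, with a median of 0.32. With CD200Fc 26 rose in high glucose, against 9.46% of all tested genes. None of the 36 passed with it in normal glucose, where no tested gene did. Without CD200Fc 33 were lower in HG than in NG. Over all 19182 tested genes 2476 were lower in HG than in NG. Of the 36 list genes 17 to 27 were positive over the alternative settings. Cad, which starts pyrimidine synthesis, was at 730, 730 and 756 CPM in NG, 788, 871 and 730 in NG+CD200Fc, 561, 597 and 611 in HG, and 881, 1024 and 992 in HG+CD200Fc (0.60 ± 0.09, adjusted p = 4.14e-05). HG was lowest and HG+CD200Fc highest, without overlap with the NG groups. Srm, spermidine synthase (0.54 ± 0.08), Dkc1, the pseudouridine synthase dyskerin (0.52 ± 0.08), and Ddx21, a nucleolar helicase (0.46 ± 0.07), were lowest in HG and similar in the other groups.

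Cell cycle lists were smaller in size of change. Of 40 tested genes of S phase and replication 12 had a positive interaction and none a negative one (median 0.21), with 3 positive without NG replicate 1 and 7 without NG replicate 3. Of 40 genes of G2 and mitosis 13 were positive and none negative (median 0.19). The mitotic kinase gene Plk1 was at 130 to 137 CPM in HG and 165 to 193 CPM elsewhere (0.54 ± 0.08, adjusted p = 3.72e-05). Cdc20, the activator of the anaphase-promoting complex (0.53 ± 0.08), cyclin A2, Ccna2 (0.49 ± 0.08), and the helicase subunit gene Mcm5 (0.44 ± 0.08) were also lowest in HG.

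Amino acid and antioxidant genes included further positive members. Of 30 tested genes of the integrated stress response 7 were positive and 2 negative (median 0.14), with 4 positive without NG replicate 3. Slc7a5, the light chain of the LAT1 amino acid transporter, was at 229, 234 and 246 CPM in NG, 240, 262 and 227 in NG+CD200Fc, 168, 185 and 184 in HG, and 284, 312 and 303 in HG+CD200Fc (0.70 ± 0.08, adjusted p = 2.62e-06). As for Cad, HG lay below and HG+CD200Fc above both normal-glucose groups. Of 27 tested NRF2 antioxidant genes 5 were positive and 4 negative (all tested genes: 3.62% and 3.58%). The negative count was 2 without HG+CD200Fc replicate 2 or 3, NG+CD200Fc replicate 1 or 3, or NG replicate 2 or 3. The glutathione synthesis genes Gclm (0.71 ± 0.11) and Gclc (0.52 ± 0.08) and the thioredoxin reductase gene Txnrd1 (0.43 ± 0.07) were positive, and the glutathione transferase gene Gstm1 was negative (-0.72 ± 0.11).

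Some gene sets differed between glucose levels with few interaction calls or none. Of 76 ribosomal protein genes 41 were lower in HG than in NG and 34 lower in HG+CD200Fc than in NG+CD200Fc, with median differences of -0.27 and -0.28. Their median interaction was -0.03, and none passed (edgeR). Nuclear oxidative phosphorylation genes had medians of -0.27 and -0.25, with 44 and 25 of 74 lower. Over all 19182 tested genes 2476 were lower in high glucose without CD200Fc and 701 with it. Counts of the comparison with CD200Fc carry the dependence on single libraries given above. Replication-dependent histones had medians of -0.90 and -0.42. Their median interaction was 0.47, from -0.06 to 1.09, so values were mostly positive though few passed. Median differences with CD200Fc were -0.30 in normal glucose and 0.19 in high glucose. Of 48 tested 1, Hist1h2an, passed the interaction test, and its call was lost without NG replicate 1 (1.03), NG replicate 3 (1.08), HG replicate 2 (0.92) or HG+CD200Fc replicate 1 (0.89). Over the alternatives 0 to 16 histone genes passed, and histone genes have many near-identical copies. Their messages mostly lack poly(A) tails, which removal of ribosomal RNA, the step named in the protocols, does not select for.

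**Figure D4:**
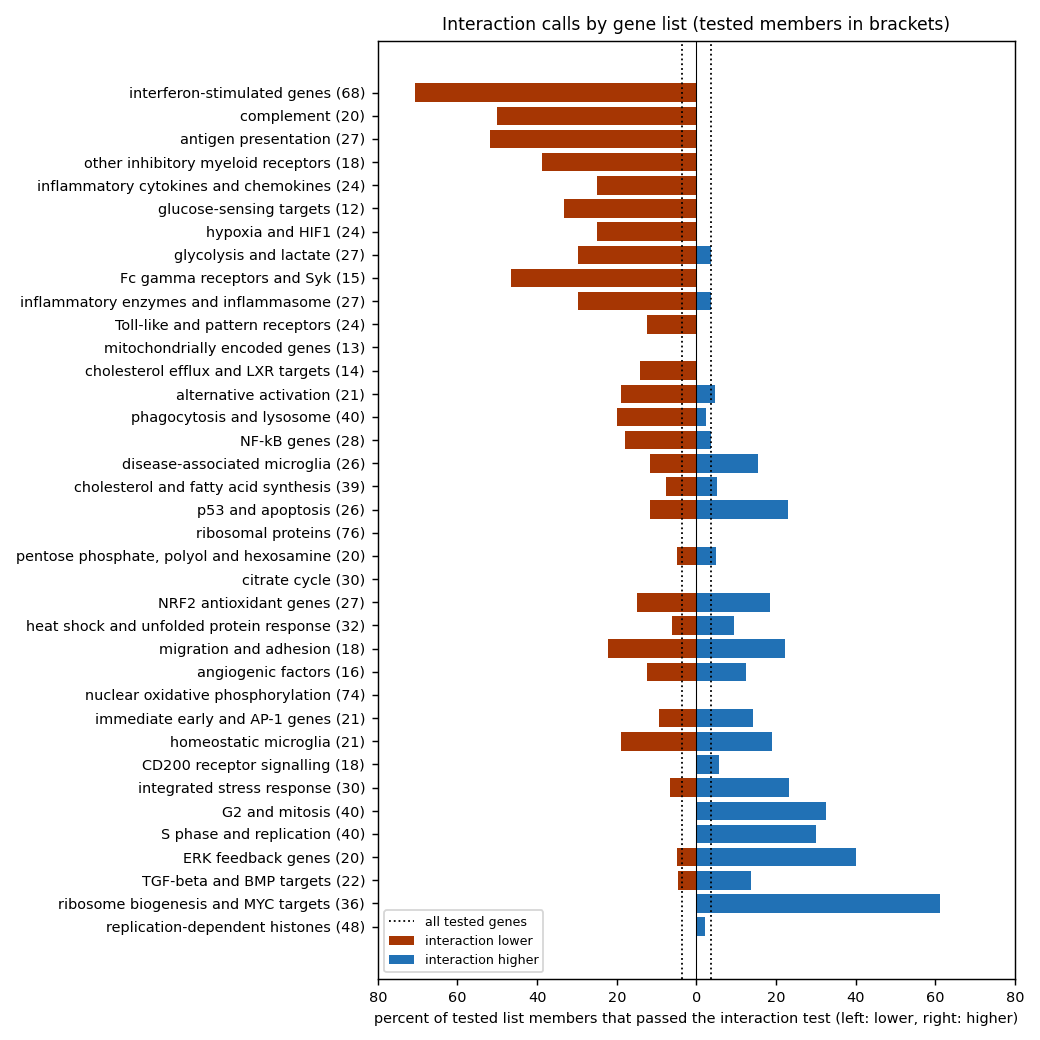
Share of tested members of each gene list that passed the interaction test, negative to the left and positive to the right, with the number tested in brackets and lists ordered by median interaction. Dotted lines give the share among all tested genes, noncoding and low-level genes included, 3.58% and 3.62%. Interferon-stimulated genes reach 48 of 68 on the left, and ribosome biogenesis and MYC targets 22 of 36 on the right.

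Vascular genes were described because microglia release factors that act on vessels. Flt1, the VEGF receptor 1, had the most certain positive interaction, 0.91 ± 0.09 (adjusted p = 1.75e-07). It was at 251, 228 and 240 CPM in NG, 241, 254 and 216 in NG+CD200Fc, 161, 158 and 167 in HG, and 275, 319 and 308 in HG+CD200Fc. HG lay below and HG+CD200Fc above both normal-glucose groups. Vegfa was highest in HG at 86.0 to 89.2 CPM against 60.0 to 74.2 CPM elsewhere, and Vwf, von Willebrand factor, at 235 to 238 against 136 to 176 CPM (-0.62 ± 0.07). Of the 10 endothelial and mural markers 7 were tested, and Flt1 and Vwf were the 2 that passed. Summed endothelial and mural markers were 385 to 401 CPM in NG, 382 to 428 in NG+CD200Fc, 414 to 421 in HG and 449 to 511 in HG+CD200Fc. Interactions of the 7 had a median of -0.50 and ran from -0.63 to 0.91, and the endothelial genes Pecam1 (-0.50) and Kdr (-0.61) did not pass. Cldn5 and Rgs5, which mark endothelium and pericytes, had 29 and 1 counts over all libraries.

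Genes with at least 2-fold differences had low levels in both directions, with a median mean of 2.68 CPM for the 23 positive and 3.27 CPM for the 155 negative ones. Dmpk, with the highest interaction of the passing genes whose mean reached 1 CPM, is the myotonic dystrophy protein kinase gene. It was at 19.3, 16.7 and 13.9 CPM in NG, 15.3, 24.4 and 9.91 in NG+CD200Fc, 3.70, 3.98 and 4.61 in HG, and 21.1, 32.9 and 22.1 in HG+CD200Fc. HG was set apart while NG+CD200Fc spread widely (2.64 ± 0.48, adjusted p = 0.0123). Kcna3, the potassium channel Kv1.3, had 1.79 ± 0.38 (adjusted p = 0.00323), with 2.36 to 3.29 CPM in NG, 1.57 to 1.89 in NG+CD200Fc, 1.13 to 1.97 in HG and 2.39 to 4.40 in HG+CD200Fc. Its difference with CD200Fc was -0.64 in normal glucose, which did not pass (adjusted p = 0.816), and 1.15 ± 0.27 in high glucose. Id1, a transcriptional inhibitor and target of BMP signalling, was at 48.0, 40.2 and 43.3 CPM in NG, 36.9, 39.7 and 41.3 in NG+CD200Fc, 16.5, 13.8 and 15.8 in HG, and 27.9, 30.4 and 28.4 in HG+CD200Fc. Both high-glucose groups of Id1 lay below both normal-glucose groups (1.07 ± 0.12, adjusted p = 1.34e-06).

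Some named genes fell into 3 orders of the 4 groups, read from the libraries, and others, such as Ccl7 and Kcna3, fell into none. In the first, HG stood alone and HG+CD200Fc overlapped with normal glucose, as for Irf7, Oasl2, Tap1, Pirb, Acod1 and Slc16a3. In the second, HG+CD200Fc lay between HG and normal glucose, as for Cd74, Mmp9, Txnip, C3 and Id1, and also Malat1, a nuclear noncoding RNA (-0.57 ± 0.08). The glucose difference with CD200Fc passed for each of these. Its adjusted p was 0.00284 for Mmp9, 0.00255 for C3, 0.00272 for Id1 and 0.0077 for Malat1. That of Malat1 was lost without HG+CD200Fc replicate 3, at a difference of 0.23 in place of 0.25. In the third, HG+CD200Fc lay beyond normal glucose on the side away from HG. Examples were B2m, Cfp, Ms4a7 and Lilr4b below normal glucose, and Flt1 and Slc7a5 above it. The glucose differences of these examples with CD200Fc were -0.33, -0.34, -0.38, -0.36, 0.34 and 0.30, with adjusted p of 0.00231, 0.00274, 0.00147, 0.00126, 0.00232 and 0.00334. These orders were read after the values were known, and the count of genes in each was not tested.

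**Figure D5:**
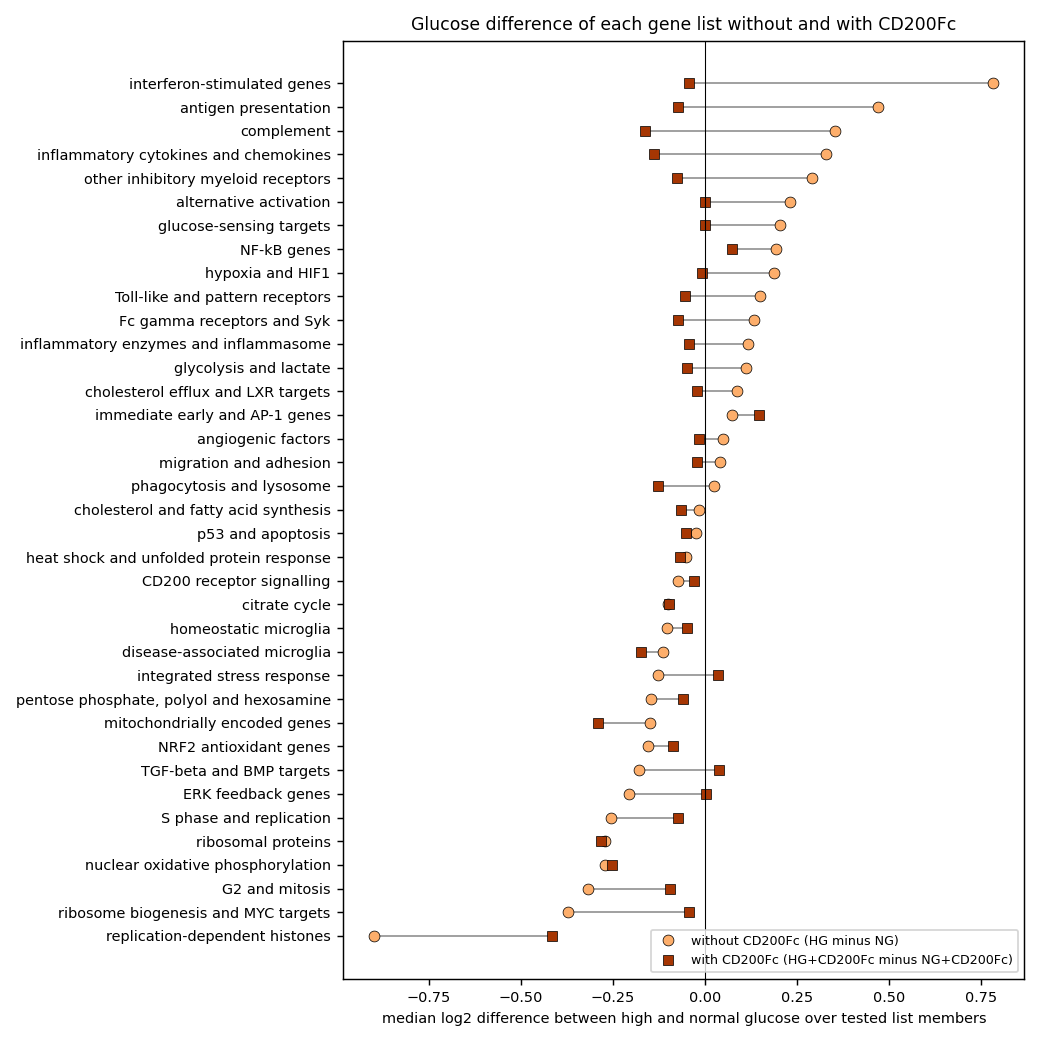
Median log2 difference between high and normal glucose over the tested members of each list, without CD200Fc (orange circles, HG minus NG) and with it (brown squares, HG+CD200Fc minus NG+CD200Fc). Interferon-stimulated genes move from 0.78 to -0.04 and ribosome biogenesis and MYC targets from -0.37 to -0.04, while ribosomal proteins stay at -0.27 and -0.28. Both comparisons enter the interaction, so the picture shows its parts.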

How the data were processed

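RNA of 12 libraries was sequenced as paired reads of 150 bases after removal of ribosomal RNA, per the labels' protocols. The authors deposited raw counts per gene. The submitters' processing notes name build GRCm38, the aligner STAR, featureCounts for counting, Salmon, limma and edgeR. The sources used here give neither annotation release nor strand setting, so overlapping genes are uncertain. Some genes are not reported here. A deposited table of the authors' own comparisons was not used.

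The table had 55774 lines. After 287 repeated lines were dropped, 55487 gene IDs remained. filterByExpr left 19182, of which 19147 were in GENCODE M21, the source of coordinates. All libraries entered 1 quasi-likelihood fit with a mean per group (edgeR 4.0.16, R 4.3.3, TMM scaling, robust, biological coefficient of variation 0.0908), and p-values were adjusted over all tested genes. CPM are TMM-scaled. Totals of 2.15e+07 to 3.19e+07 counts bear on counting error and not on other sources of variation. Reads carry no molecular identifiers.

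The members, the 46 lists (1238 names, 1234 matched) and the tests were chosen with earlier results of these data known. Named genes were the 15 lowest and 15 highest interactions among passing genes whose mean reached 1 CPM (predicted genes, pseudogenes and rRNA left out), the 4 smallest p-values of each list, and Cd200r1, Txnip and Mir6236. Genes of the 10 smallest p-values and 21 others were added after the values were seen. Alternatives were DESeq2 1.42.0, voom in limma 3.58.1, other scalings and filters, a replicate block, and leaving out each library.

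Same-numbered libraries of different groups were compared by the correlation of their deviations from the group means. Over 18 pairs it was -0.0316 to 0.106, with 2 over 0.1, so the numbers were not taken to pair libraries.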

Additional observations from a re-analysis of the deposited data

Results flagged for a closer look

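The genes in this section met the test of the difference itself: the change with CD200Fc in high glucose differed from that in normal glucose in edgeR's interaction contrast. Over all tested genes 1381 did so. By the naming rule the lowest log2 interactions among them were those of Il1a (-2.93), Ankrd37 (-2.43), Apol9a (-2.39), Ly75 (-2.23), Apol9b (-2.20), Cd4 (-2.06), Gbp4 (-2.05), Pirb (-1.91), Gpr132 (-1.85), Cdkn1c (-1.84), Crybg2 (-1.78), Abca17 (-1.74), Fcrls (-1.73), Bnip3 (-1.71) and Ifit2 (-1.70). The highest were those of Dmpk (2.64), Cx3cr1 (2.08), Pmepa1 (1.93), Fam229b (1.85), Kcna3 (1.79), Ube2cbp (1.60), Epha2 (1.49), Ccdc88c (1.19), Etv4 (1.18), Pnma2 (1.11), Hist1h2an (1.09), Id1 (1.07), Fam151b (1.05), Spsb1 (1.01) and Poln (1.00). Of these 30, 8 lost their call when a library was left out, with the sign kept. Pmepa1 did so without NG replicate 1 or 2, NG+CD200Fc replicate 1, HG replicate 1 or 3, or HG+CD200Fc replicate 1 (1.67 to 1.95), and Fam229b without NG replicate 3 (1.65). Hist1h2an did so when HG+CD200Fc replicate 1, HG replicate 2, or NG replicate 1 or 3 was left out (0.89 to 1.08). Fam151b kept its call only without NG replicate 1 or NG+CD200Fc replicate 1, and had 0.81 to 1.13 without each of the others. Spsb1 (0.88 to 1.02) and Poln (0.84 to 1.03) lost it without NG replicate 3, NG+CD200Fc replicate 1 or 3, HG replicate 1 or 3, or HG+CD200Fc replicate 2 or 3, and also without NG replicate 1 for Spsb1 and NG replicate 2 for Poln. Ly75 lost it without NG replicate 3, NG+CD200Fc replicate 1, HG replicate 2, or HG+CD200Fc replicate 2 or 3 (-2.16 to -1.78). Gpr132 lost it without NG+CD200Fc replicate 3, NG replicate 1 or 3, HG replicate 1 or 3, or HG+CD200Fc replicate 2 or 3 (-1.82 to -1.50). Cd4, in lymphocytes a T-cell co-receptor and in rodents also carried by some macrophages, was at 1.89 to 2.50 CPM in HG and 0.486 to 1.10 CPM elsewhere. Of 8 lymphocyte markers 4 were tested, and besides Cd4 these were Cd3d (-2.57), Cd79a (-1.19) and Cd3e (0.99), which did not pass. Cd8a and Ncr1 had 12 and 0 counts over all libraries. Summed lymphocyte markers were 3.45 to 4.37 CPM in HG and 2.03 to 3.10 CPM elsewhere.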

How the results depend on the processing

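The number of genes that passed the interaction test was 974 to 1505 when each library was left out in turn, 1745 with DESeq2 and 1988 with limma voom, against 1381. With a replicate block, which treats equal replicate numbers as pairs, it was 1723, and 1379 of the 1381 were among them. Numbers alone tie those libraries, and 6 of 12 libraries correlated best with their own number. Of 148 named genes that passed, 129 kept their call in all 21 alternatives that tested them, 19 lost it in at least 1, and none changed direction.

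The other comparisons moved more. CD200Fc in normal glucose gave 21 genes with no filter on low counts, 1 with limma voom, 2 with the replicate block and 0 to 8 over the left-out libraries, where the 8 came without HG replicate 1. HG+CD200Fc against NG+CD200Fc gave 2597 genes with limma voom, 2314 with the replicate block and 277 to 2288 over the left-out libraries, against 1593. Upper quartile scaling made 69.3% of its calls higher, against 56% with TMM. The causes were not tested. Genes under 1 CPM rest on few counts, and their differences carry the widest errors.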

Other observations

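The migration and adhesion list and the p53 and apoptosis list held further genes with an interaction. Of 18 tested migration and adhesion genes 4 were positive and 4 negative (all tested genes: 3.62% and 3.58%). The integrin genes Itga4 and Itgav had 0.41 ± 0.07 and 0.41 ± 0.08. Itga4 was at 131 to 135 CPM in HG and 162 to 182 CPM elsewhere, and Itgav at 89.4 to 103 and 128 to 139 CPM. Fpr1, the formyl peptide receptor of phagocytes, had -1.15 ± 0.20, with 16.2 to 20.7 CPM in HG and 5.12 to 7.92 CPM elsewhere. Of 26 tested p53 and apoptosis genes 6 were positive (all tested genes: 3.62% positive, 3.58% negative). Among them were Mdm2 (0.29 ± 0.07), Cdkn1a (0.31 ± 0.08), Zmat3 (0.35 ± 0.09) and Phlda3 (0.41 ± 0.09), all p53 targets. Each of the 4 had its lowest mean in HG, though for Zmat3 the glucose difference was -0.08 without CD200Fc and 0.28 with it. Another 3 were negative, a count that fell to 1 without any 1 of NG replicate 1, 2 or 3, NG+CD200Fc replicate 1, HG replicate 1 or 3, or HG+CD200Fc replicate 1, and to 0 without NG+CD200Fc replicate 3 or HG+CD200Fc replicate 3.

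Lysosomal and pattern-recognition genes had negative members. Of 40 tested phagocytosis and lysosome genes 8 were negative and 1 positive (all tested genes: 3.58% and 3.62%). The 8 became 3 without HG+CD200Fc replicate 3, 4 without NG replicate 2 or 3, NG+CD200Fc replicate 3, HG replicate 1 or HG+CD200Fc replicate 2, and 5 without NG replicate 1, NG+CD200Fc replicate 1 or HG replicate 3. Psap, the precursor of the saposins that assist sphingolipid breakdown, was at 2036 to 2088 CPM in HG and 1394 to 1661 CPM elsewhere (-0.58 ± 0.07). Nod2, a sensor of bacterial peptidoglycan, had -0.81 ± 0.14 with 27.8 to 29.4 CPM in HG and 13.3 to 19.1 CPM elsewhere, and Unc93b1, which escorts endosomal Toll-like receptors, had -0.33 ± 0.08. Gfpt1, the entry enzyme of the hexosamine pathway, had -0.43 ± 0.09, and Akr1b3, the aldose reductase of the polyol pathway, 0.39 ± 0.09.

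Mir6236, whose sequence lies within ribosomal RNA, was at 16.9, 1234 and 24.5 CPM in HG and 3.08 to 38.9 CPM elsewhere, and did not pass (-3.83 ± 2.43, adjusted p = 0.463). The high value was in HG replicate 2, the library with the most ribosomal RNA.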
